A study of Mus musculus with 18 samples.

Results

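The Notch pathway genes described here are 10 genes given by name: the receptors Notch1, Notch2 and Notch3, the ligands Dll1, Dll3 and Jag1, the Hes genes Hes1, Hes5 and Hes6, and the fringe gene Mfng. All 10 were matched by symbol to 1 Ensembl identifier each among the 47729 gene lines of the count files, and all 10 passed the filter on low counts that left 15000 genes for testing. They were measured in the whole cortex of mouse embryos at E15.5, a stage of active cortical neurogenesis. Both groups carried BAF155 cKO, a conditional knockout of BAF155. This protein, encoded by Smarcc1, is a scaffold of BAF complexes, which remodel chromatin. One group was treated with vehicle (Vehicle) and the other with the histone deacetylase inhibitor trichostatin A (TSA). Each group had 4 RNA sequencing libraries and 4 ChIP libraries for H3K9ac, acetylation of histone H3 on lysine 9, a mark of active promoters and enhancers. The comparison asks how the inhibitor altered transcription and acetylation within the knockout, and embryos without the knockout were not analysed here. The sources used here give neither the Cre line, the deleted exons and the dose nor whether embryos were pooled. Because the labels do not say that replicates came from separate embryos, the p-values reflect the spread among these libraries, which may be at least partly technical.

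Notch receptors are transmembrane proteins that are cut when a ligand on a neighbouring cell binds them, and the freed intracellular domain joins the DNA-binding protein RBPJ to switch on target genes. In the embryonic cortex the targets Hes1 and Hes5 keep radial glia, the apical progenitors, from differentiating by repressing proneural genes, while proneural factors in turn drive the ligand gene Dll1 in cells that are leaving that state. Fringe proteins add sugars to the receptors and so alter which ligands activate them.

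RNA libraries held between 6733415 counts (TSA 1) and 20400727 counts (TSA 3), and H3K9ac libraries between 11824246 and 24075842 tags. Smarcc1 was read at 124 to 148 CPM (counts relative to the scaled depth of a library) in Vehicle and 118 to 144 CPM in TSA libraries, and counts over the whole gene do not check a deletion of some exons. Xist, which is transcribed from the inactive X chromosome of females, stood at 1765 to 3113 CPM in all 4 Vehicle libraries and at 2323 CPM in TSA 4, but at 0.304 to 1.47 CPM in TSA 1, TSA 2 and TSA 3. Treatment and Xist status therefore cannot be told apart for those 3 libraries. The RNA library TSA 4 thus had another source than those 3, and whether the other libraries came from separate embryos is not given. A fit with Xist status as a term rests on TSA 4 against the Vehicle libraries for the effect of treatment, and its values are given beside each named gene whose call it ends.

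Of the 10 genes, 4 rose with TSA, 2 fell and 4 did not pass an adjusted p under 0.05 in edgeR's quasi-likelihood test. All 3 receptors and Hes1 rose, and Dll3 and Hes6 fell. TSA changed a large part of the transcriptome by the same rule: 33.0% of the 15000 tested genes were called, 15.4% higher and 17.6% lower, so that the count of 6 among 10 has to be read against that share. The median log2 fold change was 0.13 over the 10 genes and -0.01 over all tested genes, and the median absolute log2 fold change was 0.32 and 0.27. Since tissue was measured in bulk, fewer cells of a type and less RNA per cell cannot be told apart. With Xist status as a term, 2 of the 10 genes (Notch1 and Notch3) rose and none fell by adjusted p, while 1575 of all genes were called.

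**Figure D1:**
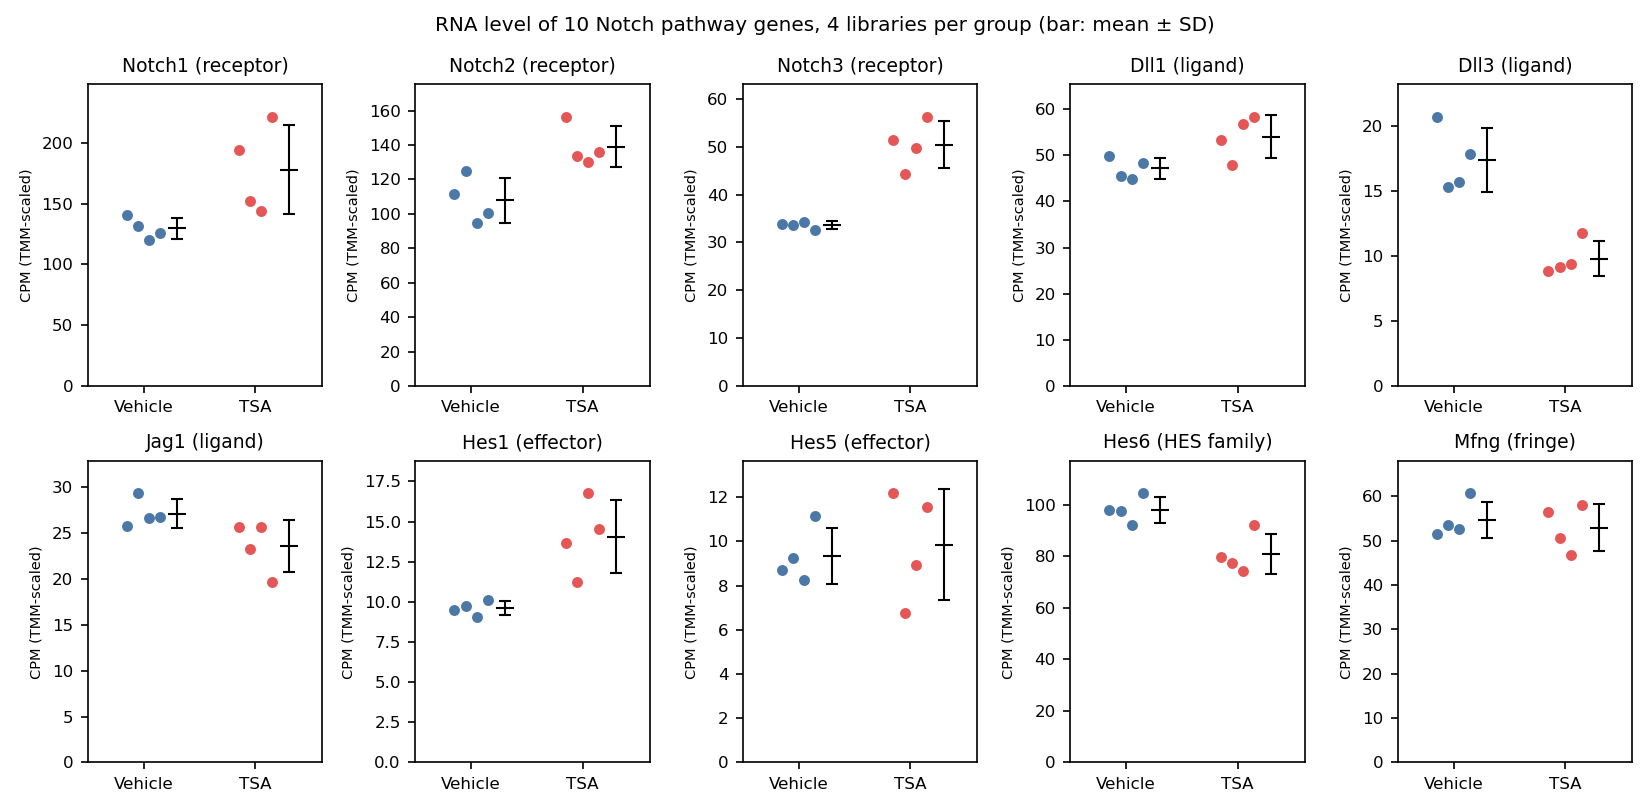
RNA level of each gene in CPM (vertical axes, starting at 0) in the 4 Vehicle and 4 TSA libraries, 1 point per library, with the mean and SD beside the points. The TSA points lie above all Vehicle points for Notch1, Notch2, Notch3 and Hes1, and below them for Dll3, Jag1 and Hes6.

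The 3 receptors rose together, by 1.29 to 1.5 times. Notch1 (ENSMUSG00000026923; mm10 chr2:26457902-26503822), the receptor most studied in radial glia, was read at 141, 132, 120 and 126 CPM in Vehicle 1 to 4 and at 194, 152, 144 and 221 CPM in TSA 1 to 4. Every TSA library lay above every Vehicle library, but TSA 2 and TSA 3 were close to Vehicle 1. The mean went from 130 ± 8.74 to 178 ± 36.5 CPM (SD, n = 4 each), a log2 fold change of 0.45 ± 0.13 (SE; edgeR adjusted p = 0.0123). Without TSA 4, the highest library, the log2 fold change was 0.33 and did not pass the threshold (adjusted p = 0.05003). The Notch1 call with Xist status as a term rests on this same library. Without Vehicle 1 and 4, which held the most mitochondrial reads, it was 0.49 (adjusted p = 0.057).

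Notch2 (ENSMUSG00000027878; chr3:98013538-98150367), a paralogous receptor, was read at 111, 125, 94.6 and 101 CPM in the Vehicle libraries and at 156, 134, 130 and 136 CPM in the TSA libraries. The groups did not overlap, although Vehicle 2 and TSA 3 were near each other. Its log2 fold change came to 0.37 ± 0.10 (SE; adjusted p = 0.0121, edgeR). It did not pass without TSA 1, the highest library (0.31, adjusted p = 0.0554), or with Xist status as a term (0.34, adjusted p = 0.211). After the trend of fold change with gene span had been removed it was 0.21 (limma adjusted p = 0.0997).

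Notch3 (ENSMUSG00000038146; chr17:32120820-32166896) is a receptor known both in neural progenitors and in the mural cells of blood vessels. Its libraries were tightly grouped in Vehicle, at 33.9, 33.7, 34.3 and 32.5 CPM, and higher in TSA, at 51.4, 44.3, 49.6 and 56.2 CPM. The groups were well apart. With a log2 fold change of 0.58 ± 0.09 (SE; edgeR adjusted p = 0.000407), Notch3 had the smallest p of the 10 genes. Its log2 fold change lay between 0.52 and 0.74 in all 19 alternative settings and passed in each. Mural cell markers, summed over the list, lay at 182 to 258 CPM in Vehicle and 133 to 189 CPM in TSA, with 1 of 8 tested markers higher and 3 lower, and their part in the rise of Notch3 was not tested.

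Of the 3 ligands, 1 fell and 2 were not called. Dll3 (ENSMUSG00000003436; chr7:28293555-28301785), a divergent ligand that does not activate receptors on other cells, was read at 20.7, 15.3, 15.7 and 17.9 CPM in Vehicle and at 8.83, 9.19, 9.37 and 11.8 CPM in TSA. All 4 TSA libraries were below the lowest Vehicle library. The mean fell to 0.566 of the Vehicle level, with a log2 fold change of -0.82 ± 0.14 (SE; edgeR adjusted p = 0.000708), the widest change among the 10 genes. With Xist status as a term it was -0.56 (adjusted p = 0.124), and in the other 18 alternative settings it passed.

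Dll1 (ENSMUSG00000014773; chr17:15367354-15376932), the activating ligand of cells that start to differentiate, was read at 49.8, 45.6, 45.0 and 48.4 CPM in Vehicle and at 53.3, 48.0, 56.7 and 58.4 CPM in TSA. TSA 2 lay within the Vehicle range and the other TSA libraries lay above it. The log2 fold change of 0.20 ± 0.09 (SE) had a 95% interval of 0.0044 to 0.39 and did not pass over all genes (edgeR adjusted p = 0.109). It passed only after the trend with gene span had been removed (0.30, limma adjusted p = 0.0161).

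Jag1 (ENSMUSG00000027276; chr2:137081451-137116520) encodes a ligand of the Jagged class, also made by blood vessels. It was read at 25.8, 29.3, 26.6 and 26.8 CPM in Vehicle and at 25.7, 23.3, 25.7 and 19.7 CPM in TSA. The TSA values were all lower, but TSA 1 and TSA 3 were almost level with Vehicle 1. A log2 fold change of -0.21 ± 0.11 (SE; 95% interval -0.44 to 0.03; adjusted p = 0.175, edgeR) did not pass there or in any alternative setting.

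Dll1 and Dll3 are both known targets of proneural factors, which bind E-boxes (CANNTG), and their promoters are shown because Dll3 fell while Dll1 was not called, a difference compared within libraries further on. The 250 bases before the start are taken from RefSeq's promoter table (GRCm38.p6, the mm10 assembly), which matched 8 of the 10 genes, and are written 5′ to 3′ on the gene's strand with each E-box in capitals. Dll1 (chr17:15376933-15377182, minus strand) held 3 matches, beginning 229, 155 and 132 bases before the start, and Dll3 (chr7:28301786-28302035, minus strand) held 2, at 228 and 7 bases.
Dll1: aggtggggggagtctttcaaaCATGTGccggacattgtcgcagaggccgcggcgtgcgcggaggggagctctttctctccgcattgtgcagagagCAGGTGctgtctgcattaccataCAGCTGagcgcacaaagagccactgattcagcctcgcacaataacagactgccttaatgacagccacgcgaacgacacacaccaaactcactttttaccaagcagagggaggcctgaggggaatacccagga
Dll3: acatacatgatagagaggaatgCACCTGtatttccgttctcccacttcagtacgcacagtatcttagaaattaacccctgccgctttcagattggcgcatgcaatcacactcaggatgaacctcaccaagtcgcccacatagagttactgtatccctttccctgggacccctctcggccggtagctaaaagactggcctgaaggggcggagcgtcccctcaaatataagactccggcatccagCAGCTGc

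The E-box letters are common, being present in 66.1% of 27025 promoters of that length searched on both strands, and a match describes letters, not binding. Jag1 held 1 match and the 3 receptors none. The N-box CACNAG, found in 36.8% of promoters, matched 1 time each in Notch1 and Notch2 and 2 times in Notch3, where 1 match overlaps a match to CACGNG (23.7% of promoters).

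The Hes genes encode basic helix-loop-helix proteins of the same family, of which 1 rose, 1 fell and 1 was not called. Hes1 (ENSMUSG00000022528; chr16:30065357-30067796), a repressor that Notch signalling induces, was read at 9.47, 9.72, 9.08 and 10.1 CPM in Vehicle and at 13.7, 11.2, 16.8 and 14.5 CPM in TSA. Every TSA library was above every Vehicle library. Its log2 fold change reached 0.55 ± 0.14 (SE; adjusted p = 0.00858, edgeR), a rise of 1.47 times, and it failed to pass only with Xist status as a term (0.60, adjusted p = 0.106).

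Hes5 (ENSMUSG00000048001; chr4:154960626-154962372), the other main effector of Notch in radial glia, was read at 8.72, 9.27, 8.25 and 11.1 CPM in Vehicle and at 12.2, 6.77, 8.92 and 11.5 CPM in TSA. The groups overlapped throughout, and TSA held both the highest and the lowest library. The estimate on the log2 scale was 0.06 ± 0.19 (SE; adjusted p = 0.853, edgeR). Its 95% interval reached from -0.34 to 0.45, and no alternative setting gave a call.

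Hes6 (ENSMUSG00000067071; chr1:91411483-91414038) encodes a family member that opposes Hes1 and favours neuronal differentiation. It was read at 97.8, 97.6, 92.3 and 104 CPM in Vehicle and at 79.7, 77.6, 74.2 and 92.3 CPM in TSA. TSA 4 nearly reached Vehicle 3, and the other TSA libraries were well below. A log2 fold change of -0.28 ± 0.09 (SE; adjusted p = 0.0278, edgeR) was the least stable call of the 6. It did not pass in 8 of 19 alternative settings, among them leaving out Vehicle 4, TSA 1, TSA 2 or TSA 3 (adjusted p = 0.0679, 0.0800, 0.1005 and 0.0918). With Xist status as a term it was -0.09 (adjusted p = 0.737), and with the trend with gene span removed -0.05 (limma adjusted p = 0.687).

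The promoters of Hes5 and Hes6 are shown because they differ in the motif that Notch signalling acts through. The RBPJ core TGGGAA was found in 21.5% of the 27025 promoters and its longer form CGTGGGAA in 0.670%, on either strand. Among the 8 members with a sequence, Hes5 alone held the core and none held the longer form. In Hes5 (chr4:154960673-154960922, plus strand) TTCCCA, the core on the other strand, began 226 bases and TGGGAA 82 bases before the start, and both are in capitals. In Hes6 (chr1:91414039-91414288, minus strand) the capitals mark 3 E-boxes at 220, 171 and 164 bases, where Hes5 held 1 E-box.
Hes5: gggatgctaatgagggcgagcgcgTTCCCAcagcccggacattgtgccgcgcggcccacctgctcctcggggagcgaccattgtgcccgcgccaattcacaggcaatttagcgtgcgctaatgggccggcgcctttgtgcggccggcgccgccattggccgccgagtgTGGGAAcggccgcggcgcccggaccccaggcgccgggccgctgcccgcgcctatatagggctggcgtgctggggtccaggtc
Hes6: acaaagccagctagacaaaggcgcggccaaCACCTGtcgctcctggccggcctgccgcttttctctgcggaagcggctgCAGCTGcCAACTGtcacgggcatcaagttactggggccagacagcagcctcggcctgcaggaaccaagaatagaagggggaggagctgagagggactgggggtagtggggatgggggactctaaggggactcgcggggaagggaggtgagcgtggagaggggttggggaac

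Hes5, with both core matches, was not called in RNA, and Hes6, with none in this window, fell. The promoters of Hes1 and Mfng are not among the sequences used here.

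Mfng (ENSMUSG00000018169; chr15:78755882-78773516), manic fringe, was read at 51.6, 53.5, 52.7 and 60.7 CPM in Vehicle and at 56.5, 50.6, 46.7 and 58.1 CPM in TSA. The groups overlapped. On the log2 scale TSA differed from Vehicle by -0.05 ± 0.10 (SE; 95% interval -0.25 to 0.16; edgeR adjusted p = 0.745).

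**Figure D2:**
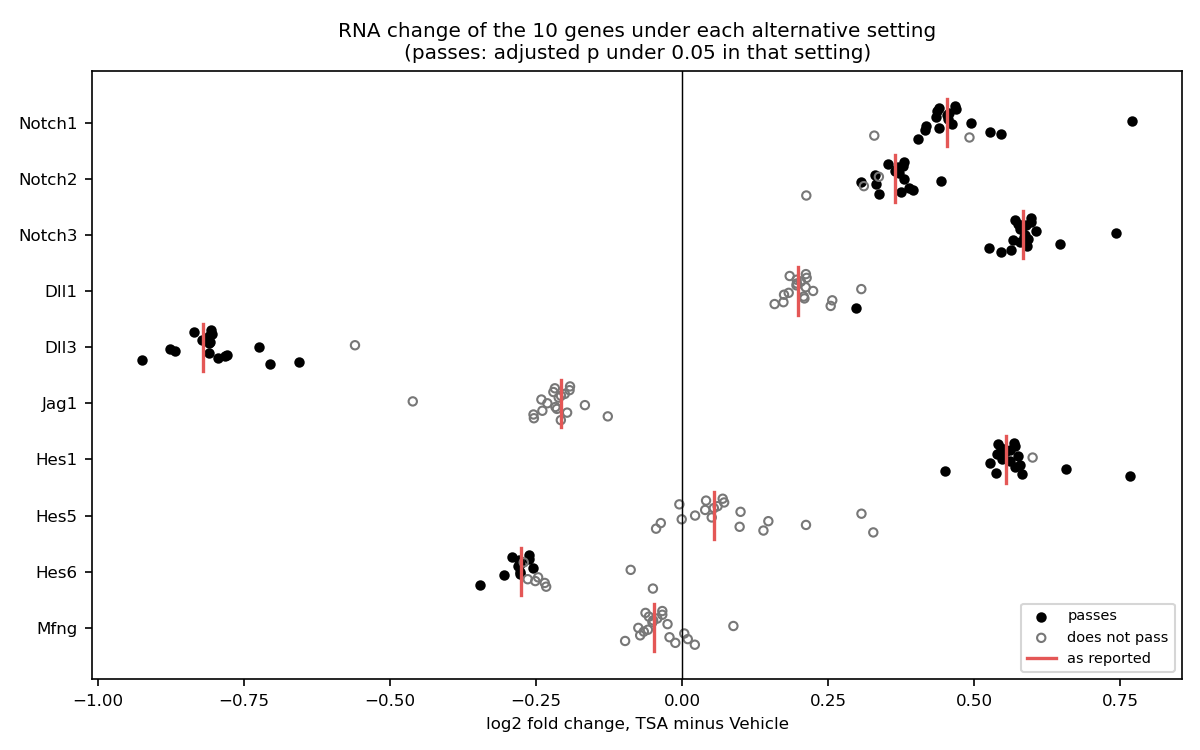
Log2 fold change (TSA minus Vehicle) of each gene under 19 alternative settings, with filled points where the adjusted p was under 0.05, open points where it was not, and a vertical bar for the reported value. All points of Notch3 are filled, those of Hes6 are partly open, and those of Hes5, Jag1 and Mfng are all open.

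Counted by separation alone, the TSA libraries lay wholly above the Vehicle libraries for 4 of the 10 genes and wholly below for 3, against 14.9% and 17.4% of all tested genes (32.3% in either direction). The file names carry a field with the form of a lane number, which the labels do not explain. Read as a sequencing lane, it puts libraries of both groups in each of 3 lanes, with only 1 or 2 libraries of a group in each. Within lanes 1, 2 and 3 the difference in log2 CPM was 0.49, 0.56 and 0.75 for Notch3, 0.38, 0.78 and 0.60 for Hes1, and -1.19, -0.70 and -0.50 for Dll3. Notch1 was higher by 0.29, 0.12 and 0.85, Notch2 by 0.38, 0.06 and 0.48, and Hes6 stood at -0.31, -0.39 and -0.09. The groups did not overlap for any of these 6 called genes. Their direction within a lane was therefore fixed beforehand, and only the sizes of the differences are informative.

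Ratios between genes of the same role were computed within each library, where they need no scaling between libraries. The log2 ratio of Dll1 to Dll3 counts was 1.26, 1.57, 1.52 and 1.44 in Vehicle and 2.58, 2.38, 2.60 and 2.30 in TSA. The ligand balance was thus shifted towards Dll1 in all 4 TSA libraries, by 1.02 ± 0.10 (SE) on the log2 scale (two-sided exact permutation test, p = 0.0286, the smallest that 4 against 4 allows; adjusted over 9 pairs p = 0.0643). Dll1 over Jag1 was higher by 0.40 ± 0.14 and also without overlap, with the same exact p-values.

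Among the Hes genes, the log2 ratio of Hes1 to Hes6 was nearly constant in Vehicle, at -3.36, -3.32, -3.34 and -3.36, and was -2.53, -2.79, -2.15 and -2.66 in TSA. The shift of 0.82 ± 0.14 (SE) was present in every TSA library (exact permutation p = 0.0286, adjusted p = 0.0643). Hes1 over Hes5 was higher by 0.49 ± 0.18, without overlap and with the same exact p-values, but TSA 1 (0.17) stood close to Vehicle 3 (0.14). Hes5 over Hes6 overlapped between groups (0.33 ± 0.18, exact permutation p = 0.143, adjusted p = 0.184).

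The receptor ratios overlapped between groups. Notch1 over Notch2 differed by 0.06 ± 0.14 (SE; exact permutation p = 0.743), Notch1 over Notch3 by -0.14 ± 0.11 (p = 0.229) and Notch2 over Notch3 by -0.21 ± 0.12 (p = 0.143). Dll3 over Jag1 differed by -0.62 ± 0.22 and overlapped through TSA 4 (exact permutation p = 0.0857, adjusted p = 0.154). None of the 9 pairs passed after adjustment, and with 4 libraries against 4 the design allowed an adjusted p under 0.05 only if more pairs had separated fully.

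**Figure D3:**
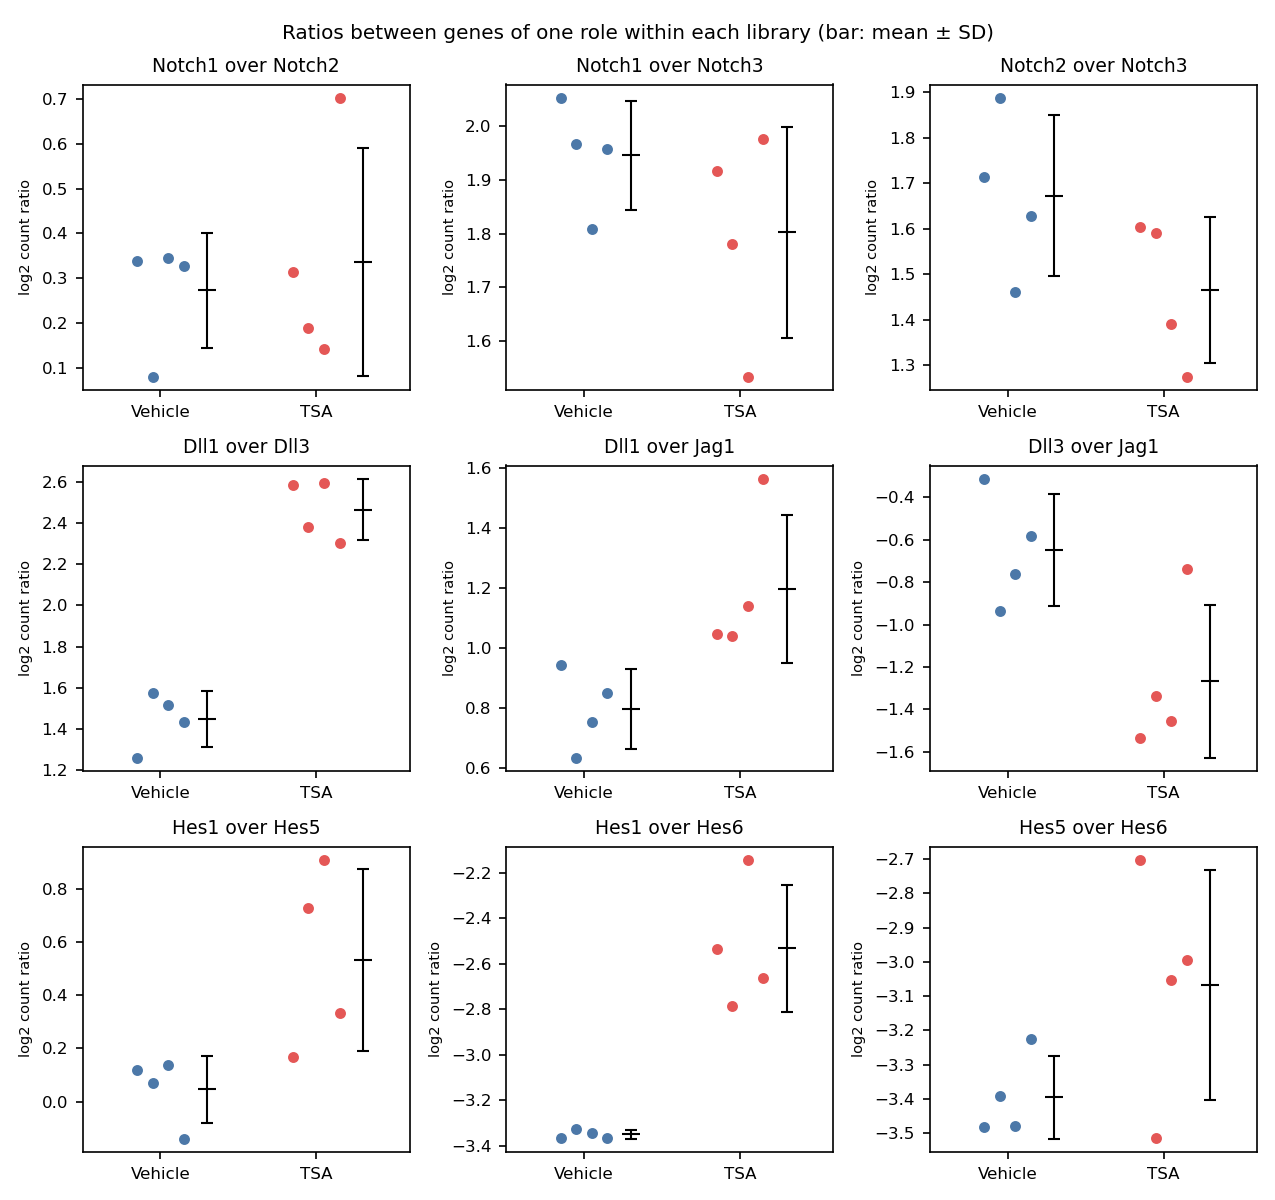
Log2 ratio of counts between genes of the same role (vertical axes, not starting at 0) in each of the 4 Vehicle and 4 TSA libraries, with mean and SD beside the points. Dll1 over Dll3 and Hes1 over Hes6 separate the groups most widely, by 1.02 and 0.82, whereas the 3 receptor ratios overlap.

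The genes whose log2 CPM followed a member most closely over the 8 libraries were taken for the member with the smallest p in each role. For Notch3 they included Zfp423 and Ptprf (Pearson r = 0.987 and 0.983), for Dll3 they were Hmgn2, Gm10762 and Utp11 (0.991, 0.990 and 0.986), and for Hes1 they were Dera, Asic4 and Ikzf4 (0.978, 0.966 and 0.955). These values describe 8 libraries that share the split into Vehicle and TSA. Among the members themselves, with group means removed, Hes6 and Mfng had the highest r (0.82) and Dll3 and Jag1 the lowest (-0.80). Both pairs were picked as the extremes of all pairs among the 10 genes and carry no test.

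A further 60 pathway genes on fixed lists placed the 10 among their partners. Over all tested genes 15.4% rose and 17.6% fell, and the count called in each list has to be read against these shares. In the nuclear complex and its corepressors, 7 of 11 tested genes rose and none fell (median log2 fold change 0.45). Spen, a corepressor that binds RBPJ, rose by 0.75 ± 0.09 on the log2 scale (SE; edgeR adjusted p = 7.53e-05), and so did the Groucho-type corepressors Tle3 by 0.67 and Tle4 by 0.45 (adjusted p = 0.000261 and 0.000858). Rbpj itself and Tle1, another Groucho-type gene, were named after their values were seen. Rbpj rose by 0.48 (edgeR adjusted p = 0.0113), whereas Tle1 was not called (-0.17, adjusted p = 0.145). The Rbpj groups overlapped, with TSA 4 at 55.4 CPM and Vehicle 2 at 58.3 CPM. Values with Xist status as a term or in other alternative settings are not given for Rbpj and Tle1. The list thus holds both activating and repressing partners.

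Genes that control ligand and receptor endocytosis and turnover also rose in 7 of 12 cases, with none lower (median log2 fold change 0.38). They included the Deltex ubiquitin ligase genes Dtx1 (0.83 ± 0.12 SE, edgeR adjusted p = 0.00018) and Dtx4 (0.45, adjusted p = 0.00599), the Numb-like gene Numbl, whose protein counteracts Notch (0.57, adjusted p = 0.00309), and Neurl1b, a ligase for ligand endocytosis (0.37, adjusted p = 0.00914). With Xist status as a term, Dtx4 (0.19, edgeR adjusted p = 0.499) and Neurl1b (0.29, adjusted p = 0.251) did not pass. Of the 10 receptor cleavage genes, 2 fell and none rose (median log2 fold change -0.10), a share near the 17.6% of all tested genes that fell. The γ-secretase subunit gene Aph1b was lower by -0.46 ± 0.08 and the sheddase gene Adam10 by -0.29 ± 0.10 (adjusted p = 0.000645 and 0.0385). Adam10 did not pass with Xist status as a term (-0.30, edgeR adjusted p = 0.285) or without any 1 of Vehicle 2, 3 or 4 or of the TSA libraries (adjusted p = 0.0505 to 0.121). Furin, the convertase gene, stood at 0.32 (edgeR adjusted p = 0.0604) and Psenen, another γ-secretase subunit gene, at -0.44 (adjusted p = 0.144). Furin passed in several alternative settings, among them DESeq2 (0.33, adjusted p = 0.0385) and edgeR without Vehicle 1 or TSA 3 (adjusted p = 0.0445 and 0.0241), and Psenen passed without Vehicle 2 (-0.58, adjusted p = 0.0437).

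Of 6 other receptors and ligands, 1 rose and 1 fell (median log2 fold change 0.22). Each count was near the share over all tested genes (15.4% rose and 17.6% fell). The Jagged-class ligand gene Jag2 rose by 0.54 ± 0.19 (edgeR adjusted p = 0.0428) and the vascular ligand gene Dll4 fell by 0.51 on the log2 scale (SE 0.18, adjusted p = 0.0394). With Xist status as a term neither passed (0.64 and -0.58, edgeR adjusted p = 0.184 and 0.238). Nor did Jag2 without Vehicle 4, TSA 1 or TSA 4 (adjusted p = 0.0758, 0.115 and 0.0987), or Dll4 without Vehicle 2, Vehicle 4, TSA 1, TSA 2 or TSA 4 (adjusted p = 0.0745 to 0.112). Dlk1, a non-canonical ligand gene, stood at 0.62 ± 0.32 (edgeR adjusted p = 0.171) and the vascular receptor gene Notch4 at 0.18 (adjusted p = 0.351). Without TSA 2, Dlk1 passed (0.84, edgeR adjusted p = 0.0352). Of 4 other glycosyltransferase genes only Poglut1, an O-glucosyltransferase gene, was called, at -0.42 ± 0.09 (adjusted p = 0.00255). The fringes Lfng (-0.11, edgeR adjusted p = 0.562) and Rfng (0.07, adjusted p = 0.751) and the fucosyltransferase gene Pofut1 (0.10, adjusted p = 0.469) were not called, as with Mfng.

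Other known targets split. Of 8 tested of 11, 3 rose and 1 fell (median log2 fold change 0.01). Hey1, Hey2 and Heyl, named after their values were seen, were not called (0.03, -0.005 and -0.21, edgeR adjusted p = 0.867, 0.990 and 0.454). Nrarp, a feedback inhibitor and direct Notch target, rose by 0.92 ± 0.28 (edgeR adjusted p = 0.0193) from a low level of 1.42 ± 0.311 CPM to 2.75 ± 0.662 CPM (SD, n = 4 each). Gfap, the astrocyte filament gene, rose by 1.44 ± 0.39 (edgeR adjusted p = 0.0103) from 0.731 to 2.09 CPM, and Sox9, a progenitor transcription factor gene, by 0.50 ± 0.12 (adjusted p = 0.0048). Id1, which encodes an inhibitor of helix-loop-helix factors, was lower by -0.85 ± 0.22 (edgeR adjusted p = 0.00887). With Xist status as a term Nrarp (1.26), Gfap (0.61) and Sox9 (0.58) did not pass (edgeR adjusted p = 0.0551, 0.544 and 0.0604). Nrarp also failed without Vehicle 4, TSA 1 or TSA 4 (adjusted p = 0.0618, 0.0503 and 0.0793), Gfap without TSA 2 (adjusted p = 0.0507), and Id1 with the trend with gene span removed (-0.50, limma adjusted p = 0.0940).

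Proneural genes, which Hes1 and Hes5 repress and which drive Dll1, had the largest median change of the pathway lists (1.76 on the log2 scale). Of 5 tested genes, 4 rose and 1 fell. Neurog1, Neurod4 and Neurog2 rose by 3.08 ± 0.23, 2.72 ± 0.22 and 1.76 ± 0.17 on the log2 scale (SE; edgeR adjusted p = 1.36e-06, 3.36e-06 and 2.61e-05).

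**Figure D4:**
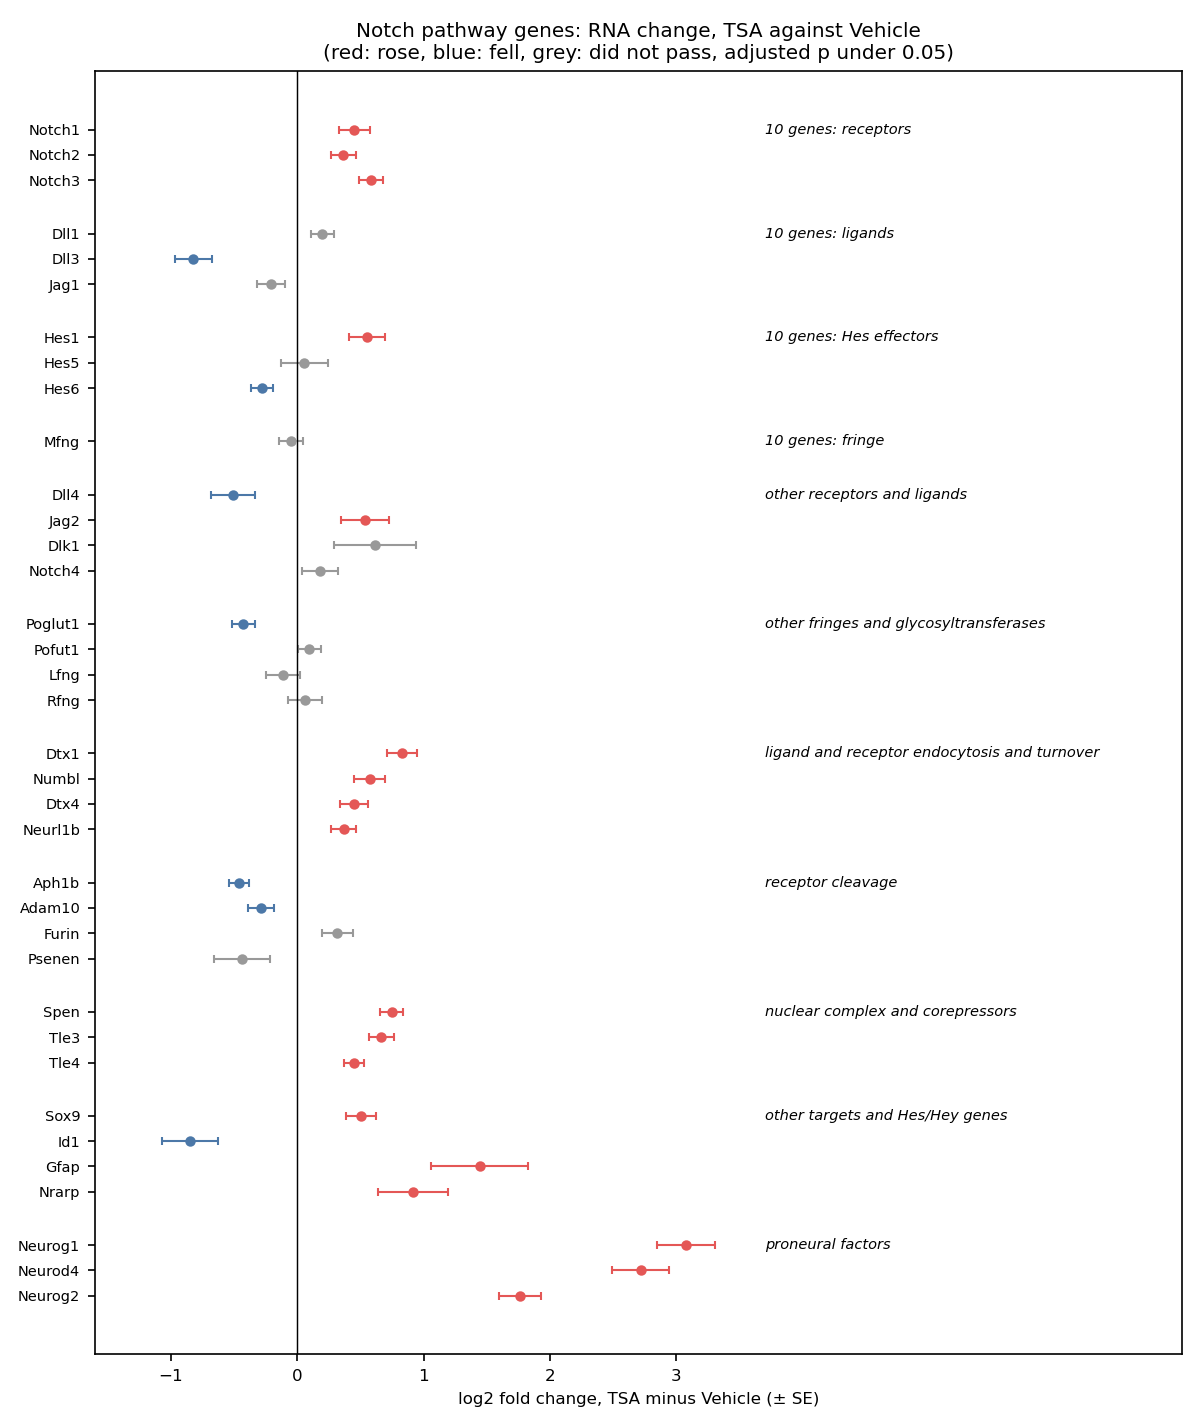
Log2 fold change (TSA minus Vehicle, horizontal axis) with SE for each of the 10 genes and the pathway genes named in the text by the same rule, grouped by role, in red where a gene rose, blue where it fell and grey where it did not pass. The Notch receptors, turnover genes and corepressors shown lie to the right of 0. Dll3, Hes6, Dll4, Poglut1, Aph1b, Adam10 and Id1 lie to the left in blue.

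Markers of regions and cell types moved with the same comparison. The counts of markers called stand beside 15.4% higher and 17.6% lower over all tested genes. Markers of the ganglionic eminence, the ventral forebrain, summed to 931 to 1165 CPM in Vehicle and 499 to 765 CPM in TSA, with 7 of 10 lower and 3 higher. Basal progenitor markers summed to 317 to 418 CPM in Vehicle and 728 to 830 CPM in TSA (4 of 7 higher), and apical progenitor markers to 1987 to 2364 and 1904 to 1943 CPM (3 of 8 higher, 2 lower). Markers of the cortex itself were present in every library and summed to 1176 to 1750 CPM in Vehicle and 1993 to 2279 CPM in TSA (5 of 6 higher), and those of neurons to 6396 to 8002 and 7906 to 8607 CPM (5 of 8 higher, 1 lower).

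Among non-neural types, endothelial markers overlapped between groups at 154 to 227 and 152 to 189 CPM. Of these, 2 of 12 fell, near the 17.6% of all tested genes that fell. Meningeal markers (2 of 6 lower) stood at 40.6 to 51.5 and 27.8 to 33.0 CPM, microglial markers (4 of 10 lower) at 50.2 to 69.5 and 36.4 to 51.9 CPM, and erythroid markers (2 of 7 lower) at 196 to 469 and 142 to 178 CPM. Choroid plexus markers stood at 7.36 to 16.4 and 6.93 to 17.3 CPM with none of 4 called. No marker was at 0 in all libraries, and 5 (Acta2, Myh11, Lum, Folr1 and Kl) were too low to test. The part of these differences in the changes of the 10 genes was not tested.

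H3K9ac peaks had been called in each library by the authors, so the value compared was the number of bases under a peak within 2 kb to each side of the start. At none of the 8 starts did the groups separate. Over all 14925 start windows with a peak in any library, 1.54% separated with TSA higher and 0.0871% with TSA lower (230 and 13 windows). This imbalance was not seen after division by each library's mean cover, which gave 323 higher and 338 lower. Such a division would also remove a change in cover shared by all windows, and the cause of the imbalance was not tested. The counts were 1145 higher and 14 lower without TSA 3, and 234 and 393 without Vehicle 4. None passed an adjusted p under 0.05 in the exact permutation test (243 had an unadjusted p under 0.05), and the smallest p that 4 against 4 allows is too large to pass over so many windows. The peak lists differed in length: Vehicle 4 had the most tags but only 22668 peaks and TSA 3 had 32248, against 41331 to 61217 in the other 6 libraries. At the members, Vehicle 4 was the lowest Vehicle library at all 8 starts.

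The receptors differed in how much of the start was acetylated. At Notch1 the covered bases were 2255, 1737, 1953 and 1263 in Vehicle and 1333, 1826, 879 and 1550 in TSA. The groups overlapped, with a difference of -405 bases (two-sided exact permutation p = 0.229), while the RNA rose. After division by the library mean the difference was -622 bases (exact permutation p = 0.0857). At Notch2 they were 930, 682, 1247 and 347 in Vehicle and 544, 620, 0 and 1361 in TSA, so that TSA 3 had no peak there (exact p = 0.657). Notch3 had the least cover of the receptors on average, at 450, 989, 824 and 361 bases in Vehicle and 493, 518, 466 and 627 in TSA (exact p = 0.457), and its TSA libraries lay within the Vehicle range.

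Among ligands, Dll1 had the broadest cover, with 2251, 2042, 2205 and 1624 bases in Vehicle and 2333, 2037, 2531 and 2296 in TSA. TSA 2 was the library that overlapped, and without it the remaining 3 TSA libraries were above all Vehicle libraries. The difference was 269 bases (exact permutation p = 0.171), but 58.3 bases after division by the library mean (exact p = 0.83), 93.0 bases over the whole gene with 2 kb to each side (exact p = 0.771) and 133 bases without Vehicle 4 (exact p = 0.343). By the authors' fold enrichment over input, the strongest Dll1 peak in a library reached 8.39 to 16.1 and ranked between the 89.7th and 97.6th percentile of its own list. Dll3 was covered over 1275, 1205, 1111 and 727 bases in Vehicle and 919, 853, 690 and 1498 in TSA (exact p = 0.657), and Jag1 over 308 to 1522 bases in Vehicle and 188 to 1864 in TSA (exact p = 0.914). Neither separated, although the RNA of Dll3 did. After division by the library mean the Dll3 difference was -238 bases (exact permutation p = 0.0571), and again no member separated.

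Hes6 had broad cover, with 2172, 3052, 3019 and 1270 bases in Vehicle and 1944, 2576, 1645 and 2644 in TSA (exact permutation p = 0.714). Hes5 had 2253, 2299, 1967 and 1233 bases in Vehicle and 1978, 1477, 1626 and 2565 in TSA (exact p = 0.914). Both overlapped. For Hes1 and Mfng, which had no start in the table, the gene and 2 kb to each side were measured instead. Hes1 had 1839, 2155, 1141 and 343 bases in Vehicle and 805, 700, 941 and 2446 in TSA (exact p = 0.857), and Mfng 3424, 3843, 3119 and 1906 in Vehicle and 1856, 3318, 1472 and 3224 in TSA (exact p = 0.286). Measured this way, none of the 10 genes separated, against 2.55% of 15888 gene spans with TSA higher and 0.0692% with TSA lower.

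**Figure D5:**
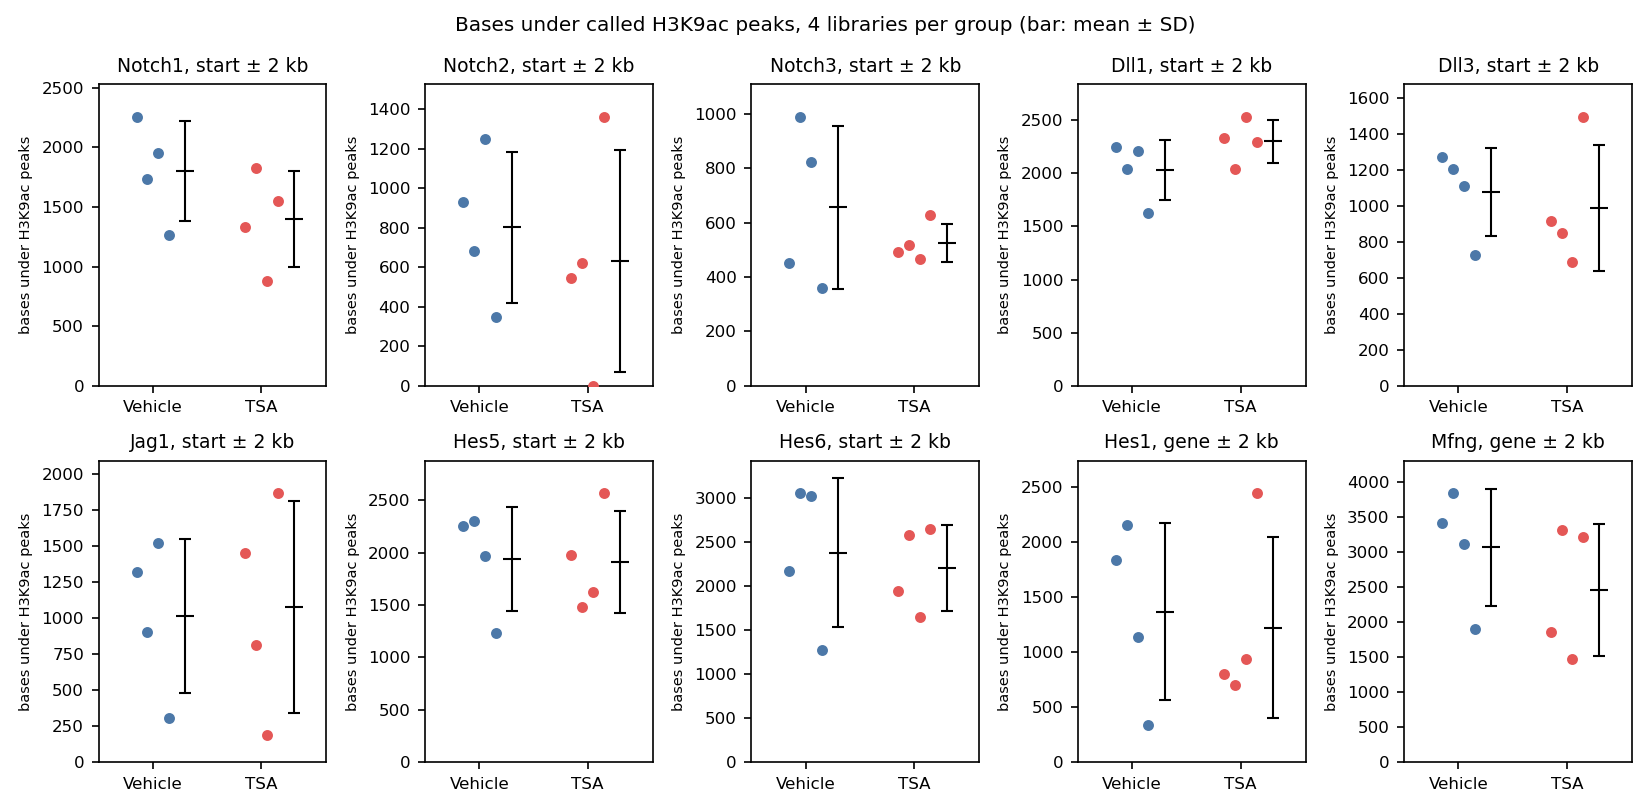
Bases under called H3K9ac peaks (vertical axes) at the start window of 8 genes and over the gene with 2 kb to each side for Hes1 and Mfng, 1 point per library, with mean and SD. Vehicle and TSA points overlap in every panel, and the lowest Vehicle point is Vehicle 4 in each.

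Merging the peaks of all 8 libraries gave 178 regions within 10 kb of the 10 genes, out of 104737 in all. Of these, 14 (7.9%) were present in all 8 libraries, against 11.8% of all regions. More TSA than Vehicle libraries held 83 of them (46.6%, against 55.6% of all regions) and more Vehicle libraries held 55 (30.9%, against 23.3%). No region at these genes was present in all 4 libraries of one group and none of the other, which 207 regions were in the TSA direction and 21 in the Vehicle direction over the genome.

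The regions present in all 8 libraries included ones at or just inside most starts. Notch1 had 4, from chr2:26485946-26489041 to chr2:26501701-26503715, and Notch2, the longest gene, had none among 38. The Dll1 region chr17:15374288-15377462 and the Dll3 region chr7:28301180-28302544 each spanned the start and the promoter printed above. The Hes5 region chr4:154960135-154965804 was the widest at 5670 bases and reached beyond the gene into Pank4 and Gm42363. Hes6 had 2 side by side, chr1:91411565-91413249 and chr1:91413356-91415621, of which the second spans the start. Hes1 held 1 over its gene body (chr16:30065973-30067070), and Mfng 1 of 3301 bases (chr15:78770177-78773477). These widths are of merged peaks, and no single peak in any library spanned most of the Hes5 or the Mfng region.

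The regions most unequal between groups were few. Within Notch2, chr3:98061208-98061583 was held by 4 Vehicle libraries and 1 TSA library. Within Mfng, chr15:78769622-78769982 was held by 3 Vehicle libraries and 0 TSA libraries, and chr4:154970834-154971215, in the flank of Hes5 and overlapping Pank4, by 0 and 3. None of these regions had a peak with −log10 q of at least 5 in any library. The Notch2 region adjoins chr3:98061596-98062343, which was held by 3 Vehicle and 4 TSA libraries. The unequal regions were picked for their difference and carry no test.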

How the data were processed

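Raw read counts per Ensembl gene, 1 file per library, were deposited by the authors without normalization, and the 8 RNA libraries were grouped by the labels as 4 Vehicle and 4 TSA. Per the labels' protocols, libraries came from the unstranded TruSeq RNA v2 kit, so reads of a gene and its antisense partner are not separated. Per the submitters' processing notes, mm10, SAMtools and MACS2 were used. Aligner, counter and annotation: not given in the sources used here. H3K9ac peaks were called per library with MACS2 2.1.0.20140616 at a q-value limit of 0.1 against a single shared input of 18937878 tags, per the file headers. The deposited peak lists give the pileup signal at the summit, fold enrichment as a ratio over input, and −log10 of p and q, all computed by the authors. The 2 input samples were not analysed here.

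Genes were filtered with filterByExpr, scaled by TMM and tested with edgeR 4.0.16 (quasi-likelihood, robust) in R 4.3.3, with Benjamini-Hochberg adjustment over all 15000 tested genes and a threshold of 0.05. Replicates of a group differed beyond counting noise (chi-square per degree of freedom from 3.12 to 36.0). Log2 ratios between members of a role (with 0.5 added to each count) and covered H3K9ac bases were compared with two-sided exact permutation tests. Start sites came from the RefSeq promoter table (GRCm38.p6), and a merged region counted as held where a peak overlapped it by at least 1 base. The script was tested on simulated data. All 10 members are described, and from each other pathway list the 4 genes with the smallest p, besides the 3 genes most correlated with 1 member of each role, and a few genes this rule takes are not reported here. The members and lists were chosen with earlier results of these data known. Alternatives were other scalings, tools (DESeq2 1.42.0, limma 3.58.1), filters, covariates, left-out libraries, a replicate block, peak limits and windows. Same-numbered Vehicle and TSA libraries were treated as unpaired.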

Additional observations from a re-analysis of the deposited data

Results flagged for a closer look

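Of 74 groups of 4 libraries examined, 4 held a library set apart from the other libraries by a gap above Dixon's 95% critical share of the range, and chance gives about 1 such group in 20. Over Notch1 with 2 kb to each side, Vehicle 4 had 4325 bases under H3K9ac peaks, and the next Vehicle library had 9026. Over Hes5, Vehicle 4 had 1603 bases and the next 2952. Vehicle 4 is also the library with the fewest peaks (22668). Over Hes1, TSA 4 had 2446 bases, whereas the next TSA library had 941, and TSA 4 has the most peaks (61217). In RNA, the log2 ratio of Notch1 to Notch2 counts was 0.081 in Vehicle 2 and at least 0.33 in the other Vehicle libraries. The part of peak number in the H3K9ac values was not tested.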

How the results depend on the processing

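The count of 4 members higher and 2 lower became 2 and 0 with Xist status as a term (all genes called: 1575 instead of 4954), 4 and 1 with no filter on low counts, 3 and 1 without both Vehicle libraries richest in mitochondrial reads, and 4 and 1 with the trend with gene span removed, where Dll1 passed and Notch2 did not. Leaving out 1 library gave 3 to 4 higher and 1 to 2 lower, with 3856 to 5593 of all genes called. Same-numbered libraries correlated weakly (r = 0.097, 0.085, 0.070 and 0.111) and not every library correlated best with its own number. With the replicate block 5342 genes were called, and the members' calls stayed at 4 higher and 2 lower. Without 1 library, the shifts in log2 ratio ranged from 0.96 to 1.07 for Dll1 over Dll3, 0.28 to 0.45 for Dll1 over Jag1, -0.79 to -0.51 for Dll3 over Jag1, 0.36 to 0.61 for Hes1 over Hes5, 0.69 to 0.90 for Hes1 over Hes6, 0.21 to 0.48 for Hes5 over Hes6, -0.06 to 0.13 for Notch1 over Notch2, -0.20 to -0.05 for Notch1 over Notch3 and -0.28 to -0.14 for Notch2 over Notch3. With the replicate block all 4 same-numbered differences had one sign for Dll3 over Jag1 (-0.62) and Notch2 over Notch3 (-0.21), each with exact p = 0.125, the smallest 4 pairs allow. For H3K9ac, 230 start windows separated with TSA higher and 13 lower. The counts were 152 and 23 for peaks with −log10 q of at least 5, 20 lower with a window of 1 kb, 323 and 338 after division by the library mean, 405 higher over whole genes, and 534 and 37 as same-signed differences in the replicate block. Leaving out 1 library gave 234 to 1145 higher (most without TSA 3) and 14 to 393 lower (most without Vehicle 4), and 0 to 1 members higher (Dll1 without TSA 2). With that q limit, 27 member regions were held by more TSA and 16 by more Vehicle libraries. The whole-gene cover and the block for H3K9ac were chosen after seeing the data. The cause of these changes was not tested. Peak lists of unequal length and 1 shared input limit the H3K9ac comparison.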
